A study of Caenorhabditis elegans with 6 samples.

Results

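The genes described here encode 9 proteins that carry out or regulate the docking and fusion of synaptic vesicles at the presynaptic membrane, or sit in the vesicle membrane. They are unc-64, snb-1, ric-4, unc-18, unc-13, cpx-1, tom-1, rab-3 and sng-1, 9 of the 47063 genes in the deposited tables. They were taken by name for their known roles and found by WormBase gene identifier. The choice was made with earlier results of these data known, so shares of all tested genes set beside the 9 are a description only. RNA-seq was made from wild-type Caenorhabditis elegans of strain FQ939, with 3 libraries labelled as dopamine neurons and 3 labelled as serotonin neurons, all from embryos and larvae. Each library was built from 1 to 2 ng of total RNA with the Ovation kit, which amplifies it. No source used here gives the way the neurons were marked and collected, or says that replicates came from separate cultures, so p-values reflect only how far these libraries spread, and that spread may be technical.

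A synaptic vesicle fuses when SNARE proteins on the vesicle and on the plasma membrane zip together into a tight bundle of helices. Synaptobrevin sits on the vesicle, syntaxin and SNAP-25 on the plasma membrane, and the helpers Munc18, Munc13, complexin and tomosyn decide when the bundle may form and complete. This machinery is shared by neurons of all transmitter types, including those that release dopamine and serotonin, and unc-13 and unc-18 mutant worms were first found because they move in an uncoordinated way.

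Recovered reads per library ranged from 20418663 to 31559049, of which 10507502 to 25677630 fell on protein-coding genes. The labels give polyA RNA, yet the share of reads on genes annotated as ribosomal RNA was 13.7% to 21.5% in 4 libraries but 43.9% in dopamine 1 and 44.99% in serotonin 3. The 2 cell types matched their labels by the transporter and synthesis genes, with dat-1 at 11060.1 to 23082 normalized counts in dopamine and 59.8 to 93.3 in serotonin libraries, and tph-1 at 3346 to 5782 in serotonin and 17.98 to 157 in dopamine libraries. By limma 6 of 6 listed dopamine identity genes were higher in dopamine libraries, and 3 of 5 serotonin identity genes higher in serotonin libraries. The other 2 overlapped between groups. These were unc-86 (means of 481 in dopamine and 544 in serotonin libraries, limma adjusted p = 0.749) and lim-4 (122 and 153, 0.816). Pharyngeal muscle markers were high in the serotonin libraries and low in the dopamine libraries, although both are labelled as neurons. The summed level of 5 such genes was 333 to 622 normalized counts in the dopamine libraries and 30256 to 55449 in the serotonin libraries, and 4 of the 5 were higher in the latter by limma, tni-4 at 6048 to 11191 against 38.6 to 143. The 5 body wall muscle markers summed to 31196 to 50935 in dopamine and 24329 to 35599 in serotonin libraries. Most of the dopamine sum was 1 gene, unc-54, at 25419 to 46551 in dopamine and 10013 to 16484 in serotonin libraries. By limma unc-54 was higher in dopamine libraries. The 2 higher in serotonin libraries were unc-15 (means of 2766 in dopamine and 6308 in serotonin libraries) and unc-22 (2765 and 9702), and myo-3 and hlh-1 did not pass. Summed markers of germ line (151 to 985), glia (350 to 693), hypodermis (212 to 1160), intestine (63.9 to 305) and neurons of other transmitters (557 to 1159) were lower and their groups overlapped, and the intestinal genes ges-1 and elt-2 and the hypodermal gene rol-6 were under 10 normalized counts in all 6 libraries.

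For all 9 vesicle fusion genes the fitted ratio of dopamine to serotonin neurons was above 1, from 1.65 for unc-18 to 2.46 for rab-3. A gene was called different by limma on log2(normalized count + 1), with an adjusted p under 0.05 over 15750 tested genes. By this rule unc-64, snb-1, unc-13 and rab-3 were higher in dopamine neurons. Those 4 of 9 compare with 3.16% of all tested genes called in that direction, and none of the 9 was among the 6.36% called higher in serotonin neurons. For 5 of the 9 the lowest dopamine value exceeded the highest serotonin value, as it did for 12.3% of all tested genes. None showed the opposite pattern, which 15.1% of all genes held. The median log2 fold change, dopamine minus serotonin, was 0.91 over the 9 and -0.07 over all tested genes. A difference of this kind in bulk RNA cannot separate fewer neurons among the cells from less RNA of these genes per neuron, and the part that pharyngeal muscle RNA in the serotonin libraries has in it was not tested.

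**Figure D1:**
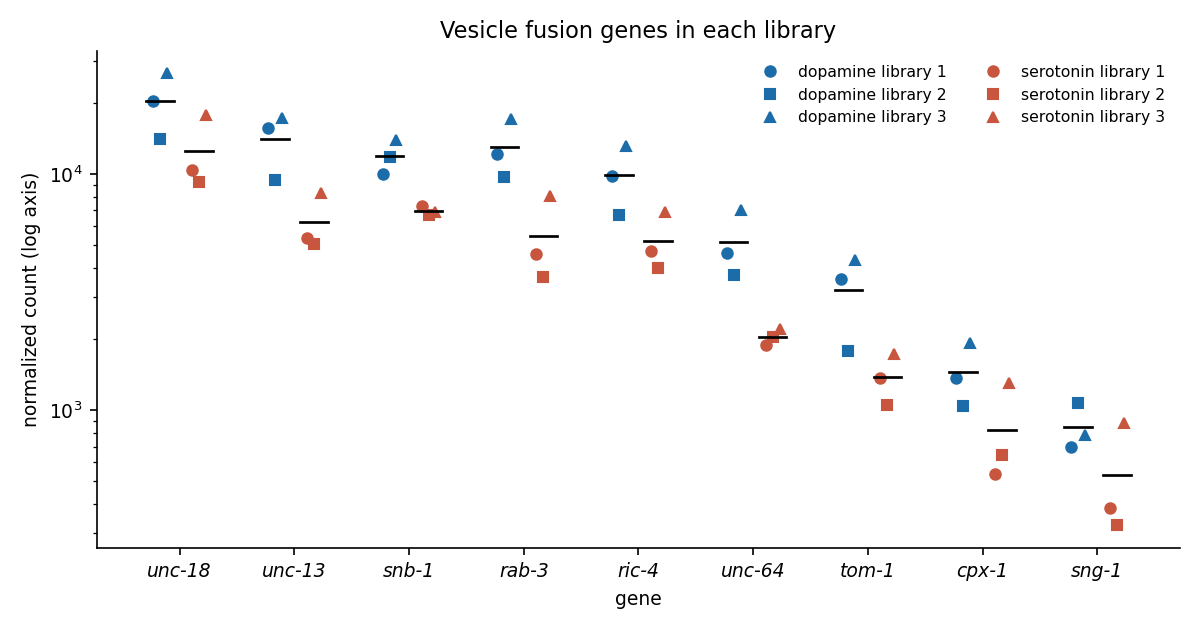
Normalized count of each vesicle fusion gene (log axis) in the 3 dopamine libraries (blue) and 3 serotonin libraries (red), with the marker shape giving the replicate number and black lines the mean of 3. Blue and red points do not overlap for unc-13, snb-1, rab-3, unc-64 and tom-1, and the third library is the highest of its group for most genes.

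Among the SNARE genes unc-64 and snb-1 passed and ric-4 did not. Syntaxin is encoded by unc-64 (WBGene00006798, chromosome III, 13277258 to 13283887, plus strand), the plasma membrane SNARE that crosses the bilayer. It stood at 4608, 3735 and 7051 normalized counts in dopamine libraries 1, 2 and 3 and at 1875, 2043 and 2209 in serotonin libraries 1, 2 and 3. The groups did not overlap, and the serotonin libraries lay close to one another while dopamine 3 was well above dopamine 1 and 2. The means of 5132 ± 1719 and 2042 ± 167 (SD, n = 3) gave a 2.43-fold difference (log2 fold change 1.28, SE 0.27, limma adjusted p = 0.0106).

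Synaptobrevin, the vesicle SNARE, is encoded by snb-1 (WBGene00004897, chromosome V, 6655562 to 6656501, minus strand). Its dopamine values were 9999, 11793 and 13887 normalized counts and its serotonin values 7340.2, 6699 and 6918. Here too the groups stayed apart, with serotonin libraries within a narrow band. The 1.69-fold difference was just past the threshold (limma log2 fold change 0.76, SE 0.22, adjusted p = 0.0486).

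The SNAP-25 gene ric-4 (WBGene00004364, chromosome V, 10261131 to 10270314, minus strand) supplies the remaining helices of the bundle. Normalized counts were 9832, 6717 and 13152 in the dopamine and 4711, 4006 and 6874 in the serotonin libraries. Serotonin 3 lay slightly above dopamine 2, so the groups overlapped, and ric-4 did not pass (log2 fold change 0.91, 95% confidence interval 0.27 to 1.56, limma adjusted p = 0.0790).

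The Munc18 protein, which holds syntaxin and templates the SNARE bundle, is encoded by unc-18 (WBGene00006757, chromosome X, 7682896 to 7686037, plus strand). It had the highest normalized counts of the 9, at 20271, 14084 and 26629 in dopamine libraries against 10421, 9233 and 17668 in serotonin libraries. Serotonin 3 exceeded dopamine 2. The difference did not pass (log2 fold change 0.72, 95% confidence interval 0.07 to 1.38, limma adjusted p = 0.178).

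Munc13, which opens syntaxin and primes docked vesicles for release, is encoded by unc-13 (WBGene00006752, chromosome I, 7422785 to 7454116, plus strand). The annotation lists 11 transcripts for it, and the gene-level counts do not tell its long and short forms apart. Dopamine libraries held 15656, 9368 and 17265 normalized counts and serotonin libraries 5353, 5037 and 8319.7. All dopamine values were above all serotonin values, with dopamine 2 the lowest of its group and serotonin 3 the highest of the other. The unc-13 level was 2.24-fold higher in dopamine neurons (log2 fold change 1.17, SE 0.29, limma adjusted p = 0.0256).

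Tomosyn, which forms SNARE bundles that exclude synaptobrevin and holds back priming, is encoded by tom-1 (WBGene00006594, chromosome I, 5546118 to 5561689, plus strand). The tom-1 values were 3579, 1779 and 4327 normalized counts in dopamine and 1361, 1054 and 1719.9 in serotonin libraries. Dopamine 2 lay only just above serotonin 3, without overlap. Its 2.23-fold difference missed the threshold (log2 fold change 1.16, 95% confidence interval 0.41 to 1.90, limma adjusted p = 0.0549). The log2 fold changes of unc-13, which promotes priming, and tom-1, which inhibits it, were 1.17 and 1.16, and the ratio of unc-13 to tom-1, in FPKM, was 2.95 ± 0.42 in dopamine and 2.93 ± 0.33 in serotonin libraries (SD, n = 3, exact two-sided permutation p = 1, where 3 against 3 cannot go below 0.1).

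Complexin, which binds the assembled SNARE bundle and in worms both clamps and promotes fusion, is encoded by cpx-1 (WBGene00022271, chromosome I, 1594649 to 1596216, minus strand). Its normalized counts were 1365, 1037 and 1923 in dopamine and 537, 642 and 1298 in serotonin libraries. Serotonin 3 held about as much cpx-1 as dopamine 1 and more than dopamine 2. The gene did not pass (log2 fold change 0.87, 95% confidence interval 0.08 to 1.66, limma adjusted p = 0.180).

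On the vesicle itself, the small GTPase encoded by rab-3 (WBGene00004267, chromosome II, 5721767 to 5727853, minus strand) marks synaptic vesicles and binds the active zone protein RIM. Dopamine libraries 1, 2 and 3 held 12071, 9723 and 17110.1 normalized counts and serotonin libraries 4562, 3659 and 8089. The groups did not overlap, although serotonin 3 came within reach of dopamine 2. The rab-3 level was 2.46-fold higher in dopamine neurons, close to the difference of unc-64 (limma log2 fold change 1.298, SE 0.32, adjusted p = 0.0235). Exons of rab-3 share 7.53% of their length with other annotated genes, damt-1 and an ncRNA on the opposite strand and an ncRNA on the same strand, and the strandedness of the libraries is not given, so reads there may be counted for either gene. For unc-64 the share was 2.49%, with set-25 on the opposite strand, and for the other 7 genes it was 0.

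Synaptogyrin, a vesicle membrane protein whose exact role in release is unsettled, is encoded by sng-1 (WBGene00004912, chromosome X, 7327601 to 7329705, plus strand). The sng-1 gene stood at 698, 1072 and 782 normalized counts in dopamine and 383, 325 and 880.2 in serotonin libraries. Serotonin 3 exceeded dopamine 1 and 3, and the gene did not pass (log2 fold change 0.80, 95% confidence interval -0.02 to 1.63, limma adjusted p = 0.239).

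Deviations from the group mean were compared library by library. In dopamine 3 and in serotonin 3, 8 of the 9 genes lay above their group mean, with a median deviation of 0.44 and 0.45 on the log2 scale. In dopamine 2 and serotonin 2 the median deviation was -0.43 and -0.34, with 2 and 1 of the 9 above the mean, and in dopamine 1 and serotonin 1 it was -0.03 and -0.17, with 4 and 2 above. The difference within each pair of the same number was positive in 3 of 3 pairs for 8 genes, a pattern held by 23.7% of all tested genes, and in 2 of 3 pairs for sng-1. With replicate number as a block in limma, 8 of the 9 passed and sng-1 did not (limma adjusted p = 0.0932), with 6.78% of all genes called in that direction. The adjusted p under the block was 7.29e-04 for ric-4, 0.00247 for unc-18, 0.0144 for cpx-1 and 7.63e-04 for tom-1. By edgeR with the block on recovered reads the count was also 8, against 4.88% of all genes, and without the block edgeR called 2 (2.57% of all genes) and DESeq2 6 (4.52%).

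Single libraries decided much of the count without the block. Without dopamine 3 none of the 9 passed limma, with 5 at an unadjusted p under 0.05 and 1.40% of all genes called. Only unc-64 passed without dopamine 1, serotonin 1 or serotonin 2, where 2.62%, 2.38% and 2.16% of all genes were called. Leaving out dopamine 2 gave 5 of 9 (2.70% of all genes), ric-4 and tom-1 among them but not snb-1, and leaving out serotonin 3 gave 6 of 9 (3.10%), ric-4, cpx-1 and sng-1 among them. Among the 4 libraries with less ribosomal RNA only rab-3 passed (2.27% of all genes), although the 9 log2 fold changes there were 0.87 to 1.66 with a median of 1.26. With a term for the ribosomal RNA split over all 6 libraries unc-64, unc-13 and rab-3 passed (2.81% of all genes). All 9 log2 fold changes were above 0 in each of these fits, although the ribosomal RNA term leaves them unchanged by construction.

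**Figure D2:**
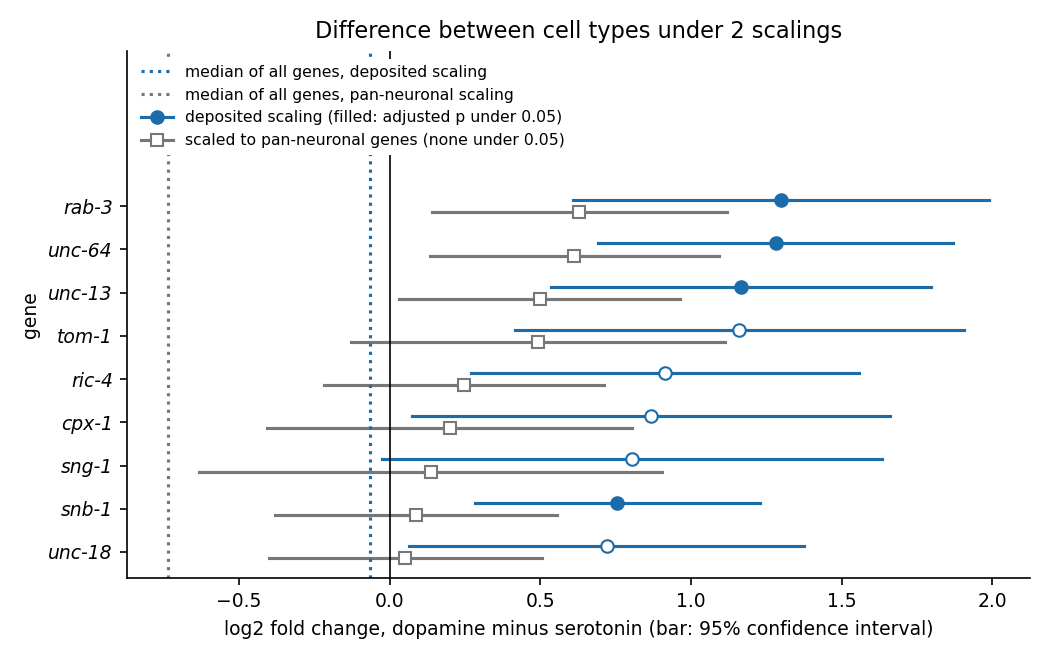
Log2 fold change (dopamine minus serotonin) of each gene with its 95% confidence interval, with the deposited scaling between libraries (blue circles) and after scaling each library to 30 pan-neuronal genes (grey squares); filled symbols have a limma adjusted p under 0.05, and dotted lines give the median of all tested genes under each scaling. Scaling moved all 9 genes and all other genes to the left by the same amount, and no grey symbol is filled.

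Genes that all neurons use were taken as a comparison. A list of 30 pan-neuronal genes that holds none of the 9 had a median log2 fold change of 0.73. Of the 30, 10 were higher in dopamine neurons (3.16% of all genes), rgef-1 (1.34) and sad-1 (1.20) among them. None was higher in serotonin neurons (6.36% of all genes), and 20 did not pass. For 18 of the 30 the lowest dopamine value exceeded the highest serotonin value, and for 1 the reverse held, against 12.3% and 15.1% of all tested genes. Of these 30, 20 passed with the replicate block in limma (6.78% of all genes). Leaving out dopamine 1, 2 or 3 gave 4, 9 or 0 (2.62%, 2.70% or 1.40% of all genes). Leaving out serotonin 1, 2 or 3 gave 5, 1 or 9 (2.38%, 2.16% or 3.10%). To compare the vesicle fusion genes with that level, each library was scaled to the mean log2 value of the 30 genes, which moved the median of all tested genes by -0.67. All 9 genes kept a positive log2 fold change, 0.05 for unc-18 to 0.63 for rab-3 with a median of 0.25, and none passed limma, against 1.28% of all genes called higher in dopamine and 13% called higher in serotonin neurons. At an unadjusted p under 0.05 there were 3, unc-64 (log2 fold change 0.61, 95% confidence interval 0.13 to 1.09), unc-13 (0.50, 0.03 to 0.96) and rab-3 (0.63, 0.14 to 1.12). The same 3 genes had all dopamine libraries above all serotonin libraries on that scale, as did 3.58% of all genes. With the replicate block added to this scaling, a combination chosen after the data were seen, unc-64, unc-13 and rab-3 passed (limma adjusted p = 0.0224, 0.0195 and 0.00419), with 2.43% of all genes called. For snb-1 the scaled log2 fold change was 0.09 (95% confidence interval -0.38 to 0.56) and for unc-18 0.05 (-0.40 to 0.51). Scaling to 77 ribosomal protein genes moved the median of all genes by -0.14, and of the 9 only unc-64 then passed (limma adjusted p = 0.0418), with 1.87% of all genes called.

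**Figure D3:**
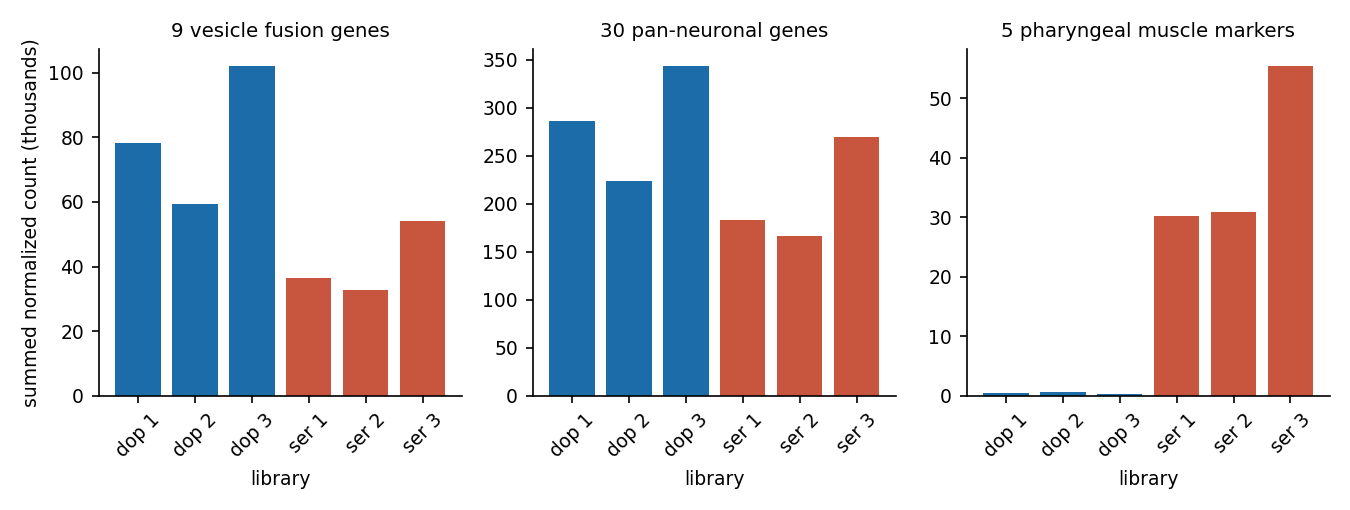
Summed normalized count in each library of the 9 vesicle fusion genes, of 30 pan-neuronal genes and of 5 pharyngeal muscle markers, with dopamine libraries in blue and serotonin libraries in red and a separate vertical scale per panel. The vesicle fusion sums of the dopamine libraries (59307 to 102126) lie above those of the serotonin libraries (32698 to 53975), while the muscle sums are high in the 3 serotonin libraries.

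As a share of protein-coding reads, the 9 genes together made up 0.506% to 0.758% in the dopamine and 0.276% to 0.418% in the serotonin libraries. The groups did not overlap on this measure, which uses no size factor. Its denominator includes reads of muscle genes, so the share also depends on how much muscle RNA a library holds. The part of muscle RNA in this difference was not tested. The lowest dopamine share was that of dopamine 2 and the highest serotonin share that of serotonin 3.

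Levels of different genes were compared per length, in the deposited FPKM. In dopamine neurons synaptobrevin came first, with snb-1 at 650 ± 106 FPKM (SD, n = 3), followed by rab-3 at 462 ± 134, ric-4 at 381 ± 124 and unc-18 at 322 ± 99.4. These neighbours had overlapping ranges, although each was above the next in 3 of 3 libraries. A gap of 2.24-fold without overlap then separated unc-18 from unc-64 at 144 ± 48.2 FPKM. The lower places were held by unc-13 at 92.2 ± 27.3, cpx-1 at 85.2 ± 26.5, sng-1 at 38.3 ± 8.82 and tom-1 at 32.5 ± 13.2 FPKM, and neither the order of unc-13 and cpx-1 nor that of sng-1 and tom-1 held in more than 1 of 3 libraries.

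In serotonin neurons snb-1 again led, at 382 ± 17.8 FPKM, 1.91-fold above the next gene and without overlap. The genes ric-4 (200.3 ± 57.6), unc-18 (197 ± 72.3) and rab-3 (193 ± 83.3) were level within their spread. A gap of 3.38-fold led down to unc-64 at 57.2 ± 4.68 FPKM, with cpx-1 (48.8 ± 24.4) and unc-13 (40.8 ± 11.8) close to it, and sng-1 (23.8 ± 13.7) and tom-1 (13.9 ± 3.36) again came last. So rab-3 stood at place 2 in dopamine and place 4 in serotonin neurons. Its dopamine neighbours overlapped it in range but kept their order within 3 of 3 libraries, whereas unc-18 was above rab-3 in 2 of 3 serotonin libraries. Among 13156 tested protein-coding genes snb-1 ranked 38 in dopamine and 80 in serotonin neurons, and tom-1 1907 and 3850. The gene length behind the FPKM of unc-64 came to 1597 bases, against 2567 bases of annotated exons, so its FPKM may be high relative to the others. By normalized count per annotated exon length unc-64 ranked 6 of 9 in dopamine and 7 of 9 in serotonin neurons, in place of 5.

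Each gene was also taken as a share of the summed FPKM of the 9, a measure that scaling between libraries cannot move. The sum was 2207 ± 533 FPKM in dopamine and 1157 ± 269 in serotonin libraries. Synaptobrevin accounted for 30.1% ± 5.58 of it in dopamine and 34.1% ± 7.11 in serotonin libraries (SD, n = 3), and its share was 36.5% to 38.5% in dopamine 2, serotonin 1 and serotonin 2 but 25.9% to 27.1% in the other 3 libraries. The rab-3 share was 20.7% ± 1.09 against 16.2% ± 3.11 and the unc-64 share 6.42% ± 0.579 against 5.07% ± 0.900, each with overlapping groups. None of the 9 shares passed the exact two-sided permutation test (exact p = 0.2 to 0.9, adjusted over 9 shares 0.6 to 0.9), and with 3 against 3 the smallest possible p is 0.1.

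**Figure D4:**
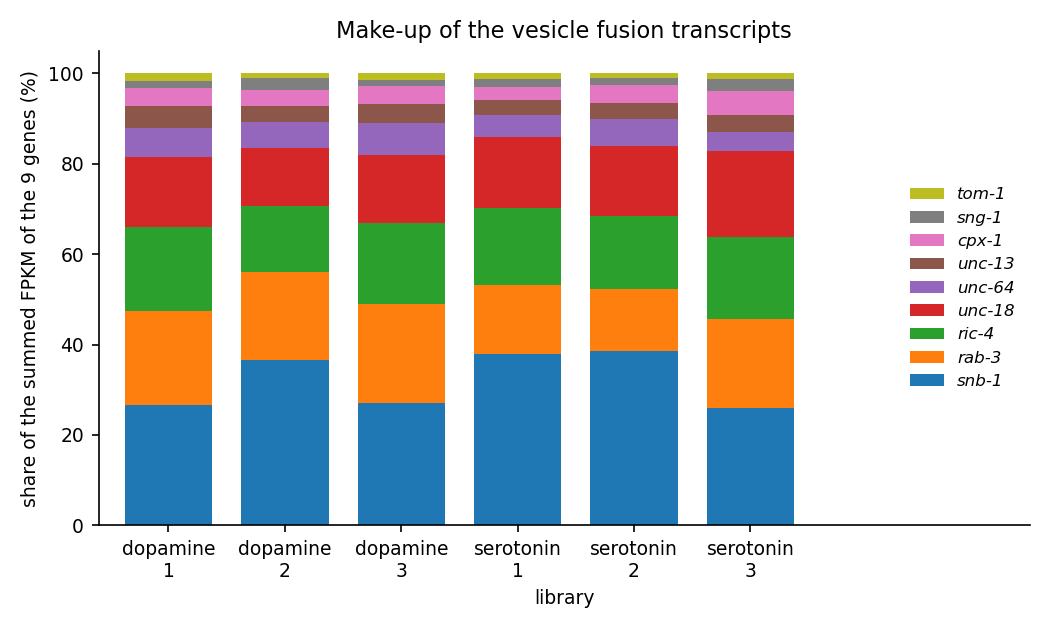
Share of the summed FPKM of the 9 vesicle fusion genes taken by each gene (%), with 1 bar per library and the order of the colours the same in every bar. In all 6 bars snb-1, rab-3, ric-4 and unc-18 together take most of the sum.

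Of 8 ratios between partners, the one of unc-18 to unc-64 kept its groups apart. It was 2.49, 2.13 and 2.13 in dopamine and 3.14, 2.55 and 4.52 in serotonin libraries (exact two-sided permutation p = 0.1, the smallest possible, adjusted over 8 ratios 0.32). The difference did not pass. The ratio of snb-1 to unc-64 was 4.74 ± 1.24 in dopamine and 6.71 ± 0.812 in serotonin libraries, with overlap, and that of cpx-1 to unc-64 was 0.595 ± 0.0262 against 0.836 ± 0.351, where serotonin 3 alone stood at 1.24. The 8 adjusted values ran from 0.32 to 1.

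The closest relatives of 7 of the 9 genes were set beside them by FPKM within each family. None of the 7 family shares passed the exact two-sided permutation test (adjusted p = 0.233 to 0.5). Bulk RNA does not tell which cells in a library held each relative. The syntaxin gene syx-2 was at 192 ± 55.6 FPKM in dopamine and 156 ± 49.9 in serotonin libraries (limma log2 fold change 0.32, adjusted p = 0.575, a direction that turned to -0.35 when scaled to pan-neuronal genes). Among unc-64, syx-2, syx-3 and syx-4, unc-64 took 46.7%, 35.8% and 43.5% of the FPKM in dopamine libraries 1, 2 and 3 and 32.3%, 26.4% and 22.7% in the serotonin libraries. These shares did not overlap (exact two-sided permutation p = 0.1, the smallest possible, adjusted over 7 families 0.233). The short gene length behind the FPKM of unc-64 may make its share too high in all libraries. The syx-3 level was 4.27 ± 0.692 against 4.52 ± 0.533 FPKM, and syx-4 was too low to be tested.

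The vesicle SNARE had almost no competitor of its own kind. The snb-2 gene stood at 1.09 to 11.5 normalized counts in dopamine and 1.23 to 12.5 in serotonin libraries, a handful of reads, and snb-1 held at least 99.76% of the FPKM of both genes in every library. The SNAP-25 relative aex-4 was at 0 to 7.30 normalized counts and not tested, whereas snap-29, which serves membrane traffic in many tissues, was at 123 ± 22.6 and 85.2 ± 14.6 FPKM (log2 fold change 0.52, limma adjusted p = 0.246, with a log2 fold change of -0.14 after pan-neuronal scaling). The ric-4 share of the 3 genes was 74.5% ± 8.93 in dopamine and 69.5% ± 7.72 in serotonin libraries (SD, n = 3). The second complexin gene cpx-2 held 5.21, 38.2 and 65.8 normalized counts in dopamine and 6.29, 3.5 and 13.5 in serotonin libraries, and cpx-1 took at least 92.0% of their joint FPKM in every library. The Rab27 gene aex-6 was at 32.7 ± 13.4 and 18.6 ± 7.43 FPKM (log2 fold change 0.82, limma adjusted p = 0.245), and the Munc18-like gene vps-45, which acts in endosomal traffic, at 7.49 ± 1.80 and 7.79 ± 4.13 FPKM. The unc-18 share of the FPKM of unc-18 and vps-45 was 97.6% to 97.9% in dopamine and 95.7% to 96.9% in serotonin libraries, without overlap (exact two-sided permutation p = 0.1, adjusted over 7 families 0.233).

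The synaptophysin gene sph-1, the relative of sng-1, was at 88.6, 190 and 59.1 normalized counts in dopamine libraries and 383, 806 and 420 in serotonin libraries. It was 5.03-fold higher in serotonin neurons (log2 fold change -2.33, SE 0.47, limma adjusted p = 0.00832), but among the 4 libraries lower in ribosomal RNA the call was lost (log2 fold change -2.38, limma adjusted p = 0.0578). Of the joint FPKM of the pair, sng-1 took 88.3%, 84.4% and 92.7% in dopamine and 48.9%, 27.8% and 66.7% in serotonin libraries. The groups of this share did not overlap (exact two-sided permutation p = 0.1, the smallest possible, adjusted over 7 families 0.233).

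**Figure D5:**
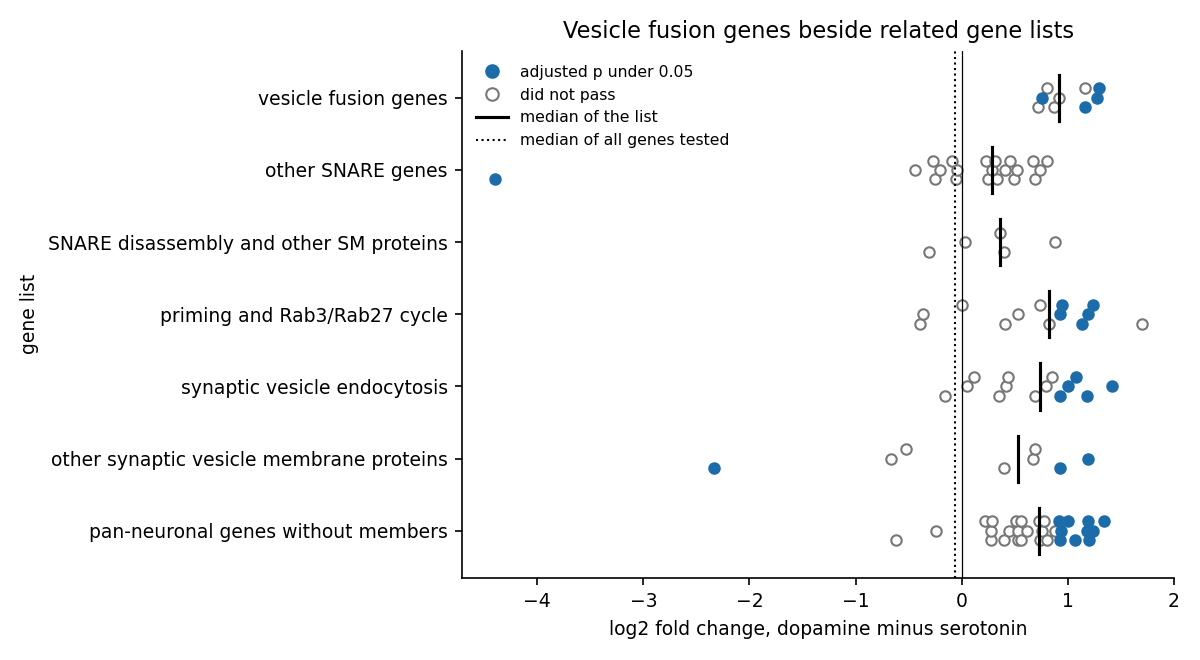
Log2 fold change (dopamine minus serotonin) of each tested gene in the vesicle fusion group and in 6 related lists, with blue points for a limma adjusted p under 0.05, open points for genes that did not pass, solid bars for list medians and a dotted line for the median of all tested genes. The vesicle fusion genes lie between 0.72 and 1.298, the endocytosis and priming lists have medians of 0.74 and 0.82, and the other SNARE genes have a median of 0.29 with vamp-8 far to the left.

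The other genes of the vesicle cycle were counted from lists chosen by role. Of 21 tested SNARE genes outside the 9, most of which serve the Golgi, endosomes or lysosomes, none was called higher in dopamine neurons, with sec-22 and vti-1 at an unadjusted limma p under 0.05 and none called by edgeR or DESeq2. Of all tested genes 3.16% were called in the dopamine and 6.36% in the serotonin direction, and 1 of the 21 was called higher in serotonin neurons. This was vamp-8, a relative of a vertebrate endosomal and secretory SNARE, at 17.7, 0.54 and 0.60 normalized counts in dopamine and 74.7, 72.5 and 77.3 in serotonin libraries (limma adjusted p = 0.0209), where 0.54 and 0.60 are 1 read each. The vamp-8 call was lost without dopamine 3 or serotonin 1, 2 or 3 (limma adjusted p = 0.0624, 0.0842, 0.0985 and 0.0978), with a filter of 50 normalized counts (limma adjusted p = 0.0583) and by edgeR (adjusted p = 0.115). The median log2 fold change of the 21 was 0.29. With the replicate block 2 of them were higher in dopamine neurons by limma (6.78% of all genes) and 1 by edgeR (4.88%).

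SNARE bundles are taken apart after fusion by the ATPase NSF and its adaptor. Neither nsf-1 (75.7 ± 20.4 against 40.6 ± 7.21 FPKM, log2 fold change 0.88, limma adjusted p = 0.0584) nor the adaptor gene snap-1 (113 ± 8.29 against 86.6 ± 17.4, log2 fold change 0.40, limma adjusted p = 0.370) passed, and none of the 5 tested genes of this list did. The nsf-1 gene passed with the replicate block (limma adjusted p = 0.00198), and its adjusted p ran from 0.00198 to 0.450 over all alternatives. The snap-1 value turned to -0.27 when scaled to pan-neuronal genes.

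The 13 tested genes of priming and of the Rab3 and Rab27 cycle had a median of 0.82. Against 3.16% and 6.36% of all tested genes, 5 of the 13 were higher in dopamine and none in serotonin neurons. They were the RIM gene unc-10 (2.36-fold), the RNA-binding protein gene exc-7 (2.28-fold), the rabphilin gene rbf-1 (2.19-fold), the diacylglycerol kinase gene dgk-1 (1.92-fold), which restrains release by removing the lipid that activates Munc13, and pkc-1, named after its value was seen (1.91-fold). The count was 1 without dopamine 1, serotonin 1 or serotonin 2 (2.62%, 2.38% and 2.16% of all genes). It was 0 without dopamine 3 (1.40%) and 3 without serotonin 3 (3.10%). With the replicate block it was 7 by limma (6.78%) and 6 by edgeR (4.88%). It was 0 when scaled to pan-neuronal genes (1.28% of all genes), where 2 of the list were called higher in serotonin neurons, against 13% of all genes.

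The 14 tested genes of synaptic vesicle endocytosis had a median of 0.74. Against 3.16% and 6.36% of all tested genes, 5 of the 14 were higher in dopamine and none in serotonin neurons. The intersectin gene itsn-1 showed the widest difference (2.68-fold, log2 fold change 1.42, SE 0.29, limma adjusted p = 0.00972) and was also called after scaling to pan-neuronal genes (log2 fold change 0.75, limma adjusted p = 0.0354), but not without dopamine 3 (0.0600). The others were the endophilin gene unc-57 (2.27-fold), the stonin gene unc-41 (2.11-fold), the EPS15 gene ehs-1 (2.01-fold) and the AP180 gene unc-11 (1.91-fold), the last named after its value was seen. Without dopamine 1, serotonin 1 or serotonin 2 the endocytosis count was 1 (2.62%, 2.38% and 2.16% of all genes), and without dopamine 3 it was 0 (1.40%). With the replicate block in limma it was 8 (6.78% of all genes).

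Among 8 tested genes for other vesicle membrane and associated proteins, the synaptotagmin gene snt-1 (2.28-fold) and the SV2-like transporter gene svop-1 (1.90-fold) were higher in dopamine neurons and sph-1 was higher in serotonin neurons. Of all tested genes 3.16% were called in the dopamine and 6.36% in the serotonin direction. The synapsin gene snn-1 stood at 12.8 ± 2.93 and 9.95 ± 3.35 FPKM and did not pass. Leaving out dopamine 1 or serotonin 1 reduced the membrane protein count in the dopamine direction to 1 (2.62% and 2.38% of all genes). Leaving out dopamine 3 or serotonin 2 reduced it to 0 (1.40% and 2.16%). With the replicate block in limma it was 4 (6.78%). Genes of the priming, endocytosis, disassembly and membrane lists that are also on the pan-neuronal list (unc-10, unc-31, aex-3, unc-11, unc-57, ehs-1, nsf-1, snn-1 and snt-1) entered the scaling as well.

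The genes whose pattern over the 6 libraries was most like the mean of the 9 were found by Pearson correlation of log2 values among 9214 protein-coding genes with a mean of at least 50 normalized counts. They were clip-1 (r = 0.997), the non-muscle myosin heavy chain gene nmy-1 (0.997), tbc-18 (0.996), phm-2 (0.996) and the vesicular monoamine transporter gene cat-1 (0.995). With so many candidates and 6 libraries in 2 groups, values of this size are a description only. The cat-1 transporter, which loads dopamine or serotonin into the same vesicles, averaged 6276 normalized counts in dopamine and 2351 in serotonin libraries (log2 fold change 1.40).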

How the data were processed

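Values were analysed for 3 dopamine and 3 serotonin libraries. Both deposited tables come from the authors. One holds a signal, normalized counts that equal reads per gene over 1 size factor per library, and the other holds deposited FPKM values with the same scaling between libraries and the gene length added. STAR, HTSeq and DESeq2 are listed, per the submitters' processing notes, with no role or version, and no source used here gives the genome build or strandedness. Whole reads were recovered from the single step of each column, with at most 1 value per library further than 0.02 reads from a whole number, and 1 read was worth 0.393 to 1.23 normalized counts. Genes were matched by identifier to the WBcel235 annotation of Ensembl release 115 (46407 of 47063), which gave all coordinates.

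Genes with at least 10 normalized counts in at least 3 libraries were tested, 15750 in all and all 9 vesicle fusion genes among them. The cell types were compared by limma 3.58.1 (trend and robust options, R 4.3.3) on log2(normalized count + 1), with Benjamini-Hochberg adjustment over all tested genes and a threshold of 0.05; confidence intervals are at 95%. edgeR 4.0.16 and DESeq2 1.42.0 were run on recovered reads, and the scripts were tested on simulated data. Ratios and shares used the exact permutation test of scipy 1.17.1. To check whether replicate numbers pair the libraries, deviations of each gene from its group mean were correlated. Same-numbered libraries gave 0.433, 0.173 and 0.28 and other combinations at most 0.0134. Deviations within a group sum to 0, so positive same-numbered values push the other combinations down, and this contrast is partly built in. A fit with the number as a block is therefore given only as an alternative, where it changes a call. The pairing thus comes from these correlations, not from a label that names a shared batch. Libraries of a group differed far beyond counting error (chi-square per degree of freedom 116 to 458).

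The members and gene lists were chosen with earlier results of these data known. Of each list up to 4 genes are named, by largest fold change among genes past the threshold, or the 2 of highest mean FPKM in a list with none, and close relatives of the 9 genes. Sequences are not used here. The listed symbols gosr-2.1, gosr-2.2 and scfd-1 did not match a gene and were left out. The symbol rab-27 did not match either, but the Rab27 gene was tested under its listed name aex-6.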

Additional observations from a re-analysis of the deposited data

How the results depend on the processing

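All 9 log2 fold changes were above 0 in each of the 24 alternatives run, but the calls moved. Several of the 24 leave the fold changes as they were by construction, so their signs add nothing. These are no filter, a filter of 50, the limma replicate block, the ribosomal RNA term and a threshold of 0.10. The block added to pan-neuronal scaling likewise repeats the fold changes of that scaling. The count of vesicle fusion genes higher in dopamine neurons, 4, became 0 when scaled to pan-neuronal genes, 1 when scaled to ribosomal protein genes, 2 by edgeR, 8 with the replicate block by limma or by edgeR, and 1 among the 4 libraries with less ribosomal RNA. Leaving out 1 library gave 0 to 6. None was higher in serotonin neurons under any of them. Over limma, edgeR and DESeq2 together, the adjusted p of unc-64 ranged from 2.23e-04 to 0.0863 and that of snb-1 from 0.00361 to 0.784, and the snb-1 call, the nearest to the threshold, was lost in 15 of them.

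Over all tested genes, 498 were higher in dopamine neurons, and 201 with pan-neuronal and 294 with ribosomal protein scaling, 1068 with the replicate block by limma and 768 by edgeR, 301 among the 4 libraries and 215 to 466 with 1 library left out. The count of all genes higher in serotonin neurons, 1002, became 2043 with pan-neuronal scaling, 1842 with the replicate block, 4845 with both, 497 among the 4 libraries and 579 to 1314 with 1 library left out. The share of calls in the dopamine direction therefore depends on the scaling; quantile normalization moved the median of all genes from -0.07 to 0.13.

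Some named genes that did not pass changed sign. Pan-neuronal scaling, which moves every gene by -0.67, turned with or without the block snap-1 to -0.27, snap-29 to -0.14, syx-2 to -0.35 and vps-45 to -0.63. The log2 fold change of vps-45, 0.04, was -0.10 with ribosomal protein scaling, -0.034 by edgeR, -0.060 by DESeq2 and -0.18 to 0.44 with 1 library left out. That of syx-3, -0.09, was 0.10 after quantile normalization, 0.040 among the 4 libraries and -0.21 to 0.0054 with 1 library left out, and that of snb-2, -0.25, was 0.97 after quantile normalization and -1.08 to 0.49 with 1 library left out. The cause of these changes was not tested.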
